A study of Mus musculus with 6 samples.

Results

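Corneodesmosin, the kallikrein proteases of skin and their inhibitor were followed in RNA of embryonic mouse skin. The genes were Cdsn, Klk5, Klk6, Klk7, Klk8, Klk10, Klk11, Klk13, Klk14 and Spink5, and the probe sets were those that the platform annotation maps to exactly 1 gene symbol among these 10. This gave 9 probe sets for 9 genes, of 18193 genes with such a probe set on the array, and Klk14 had none, so its expression was not analysed here. Skin of Tcfap2c mutant embryos (3 samples) was set against skin of control embryos (3 samples), all at embryonic day 16.5, with 1 one-colour Affymetrix array per sample. Tcfap2c, now Tfap2c, encodes the transcription factor AP-2 gamma. The labels name neither the altered allele nor any driver of a deletion, nor the genotype, litter or strain of the controls, and the description field of the controls also mentions the mutation. P-values therefore measure the spread between these 6 samples, which may be technical in part. The samples are whole skin. In such bulk RNA, fewer cells of a type and less RNA per cell cannot be told apart.

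Corneodesmosin is a secreted glycoprotein of the granular layer that holds cornified cells together in corneodesmosomes, the modified desmosomes of the outer epidermis. Skin kallikreins are secreted serine proteases that cut corneodesmosin and the desmosomal cadherins, so that surface cells can be shed. In human skin, KLK5 activates itself and other kallikreins, KLK7 is the chymotrypsin-like member, and LEKTI, the product of SPINK5, inhibits both. Loss of SPINK5 in humans causes Netherton syndrome, with premature shedding, and mice without Cdsn lose their epidermal barrier.

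The promoters of Cdsn, Klk5, Klk7 and Klk8 are printed here because AP-2 factors bind the palindrome GCCNNNGGC, and because the first 3 are the genes whose mutant and control signals did not overlap. Sequences are RefSeq windows of GRCm38.p6 from 250 bases before to 50 bases after an annotated start. All lie on the plus strand, at chr17:35551878-35552177 for Cdsn, chr7:43842019-43842318 for Klk5, chr7:43811044-43811343 for Klk7 and chr7:43797327-43797626 for Klk8. Capitals mark GCCNNNGGC and GCCNNNNGGC, each its own reverse complement, and no 2 matches overlapped in these windows.
Cdsn: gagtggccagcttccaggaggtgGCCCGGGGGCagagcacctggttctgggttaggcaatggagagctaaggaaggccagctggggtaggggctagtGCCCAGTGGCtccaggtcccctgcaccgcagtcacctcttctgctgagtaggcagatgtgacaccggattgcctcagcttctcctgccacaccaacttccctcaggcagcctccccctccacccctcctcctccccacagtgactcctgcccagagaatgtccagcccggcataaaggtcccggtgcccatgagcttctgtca
Klk5: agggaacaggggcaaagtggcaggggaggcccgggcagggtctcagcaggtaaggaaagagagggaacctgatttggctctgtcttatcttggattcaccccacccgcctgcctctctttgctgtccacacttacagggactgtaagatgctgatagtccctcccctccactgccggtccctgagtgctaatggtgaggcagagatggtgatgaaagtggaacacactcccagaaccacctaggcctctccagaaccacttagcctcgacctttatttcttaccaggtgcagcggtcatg
Klk7: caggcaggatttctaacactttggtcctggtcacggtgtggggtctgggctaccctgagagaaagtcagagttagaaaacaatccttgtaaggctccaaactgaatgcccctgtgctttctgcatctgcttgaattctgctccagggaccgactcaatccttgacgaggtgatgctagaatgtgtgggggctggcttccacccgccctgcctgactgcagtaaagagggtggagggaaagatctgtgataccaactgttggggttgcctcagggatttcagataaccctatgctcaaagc
Klk8: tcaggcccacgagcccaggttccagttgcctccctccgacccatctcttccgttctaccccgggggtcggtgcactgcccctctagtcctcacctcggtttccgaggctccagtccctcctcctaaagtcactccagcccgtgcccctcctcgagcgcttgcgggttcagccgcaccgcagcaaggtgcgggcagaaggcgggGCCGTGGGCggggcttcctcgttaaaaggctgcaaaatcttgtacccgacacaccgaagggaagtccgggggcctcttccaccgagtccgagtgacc
GCCNNNGGC was present in 1 of 12 windows available for 9 member genes (Klk14 included, Spink5 without a window), that of Klk8, starting 47 bases before the annotated start. Over all 32851 windows the share was 16.6%. The wider spacing GCCNNNNGGC, added after the data were seen, was present in 2 of the 12 windows, against 14.8% of all windows. These were the Cdsn window above, with 2 matches, and that of Klk13. The windows of Klk5 and Klk7 and the other window of Cdsn held neither motif. A match describes letters only, and its absence says nothing about binding elsewhere.

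All arrays had been scaled to the same trimmed mean, and their median signals lay between 110.0 and 131.3. Mutant sample 1 stood apart from the other 5 arrays, with a mean correlation of 0.94 with the rest, where the other arrays had 0.961 or more. It carried decidual and uterine transcripts. The summed signal of 11 such markers was 74974 in mutant sample 1 and 4054 and 4525 in mutant samples 2 and 3, against 3970 to 4322 in control samples. Krt5, a basal keratin, had a signal of 11821 in mutant sample 1, 22130 in mutant sample 2 and 16961 in mutant sample 3, against 18352 to 21249 in control samples. Keratins of skin were high in every sample, and the suprabasal Krt10 lay between 44371 and 55935 in mutant and between 38888 and 53861 in control samples. By Xist, transcribed from the inactive X, the female samples were mutant 1 and controls 1 and 2, so the sexes were not balanced between groups.

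Of the 9 member probe sets, 8 were tested. They had a mean log2 signal above the median of all probe sets (a signal of about 114.5), and their signal exceeded this value in every sample. Klk6, a protease best known from the nervous system, had a mean log2 signal below the median and was not tested, although 3 of its 6 samples lay above 114.5. Differences are mutant minus control on the scale log2(signal + 24.48), which understates changes of dim probe sets. No member passed an adjusted p of 0.05 in limma over the 22518 probe sets tested. That threshold was passed by 1 probe set, or 0.00444%. At an unadjusted p under 0.05, 3 of the 8 members had lower signal in mutant skin, against a background of 1.97% of all probe sets in the lower direction. Every mutant sample lay below every control sample for 3 of the 8 members, against 5.03% of all probe sets tested. The 3 were the same genes in both counts: Cdsn, Klk5 and Klk7. Both counts depended on mutant sample 2, and the count by p on the control samples and the model as well. Without mutant sample 2, 6 of the 8 members were lower at an unadjusted p under 0.05, against 3.23% of all probe sets. In that setting 7 of the 8, all but Spink5, had every mutant sample below every control sample, against 11.7%. Without mutant sample 1 instead, 6 of the 8 were negative and both counts were 3 of the 8. Of all 22518 probe sets, 865 were then lower at that p and 2693 had every mutant sample below every control sample. Without control sample 1, 2 or 3, and with robust variance, only Cdsn and Klk5 of the members were lower at that p. All probe sets lower at that p then numbered 260, 356, 223 and 433 of 22518. With sex as a covariate, the 3 members lower at that p were Cdsn, Klk5 and Klk10, against 995 of all probe sets. Klk7 then had an unadjusted limma p of 0.064. With array weights 5 members were lower at that p, Klk8 and Klk13 besides Cdsn, Klk5 and Klk7, against 1435 of all. With all 6 samples the difference was negative for 7 of the 8, with a median of -0.47, against 55.6% of all probe sets and a median of -0.025. The members were chosen with earlier results of these data known, so these counts beside the shares of all probe sets are description only.

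**Figure D1:**
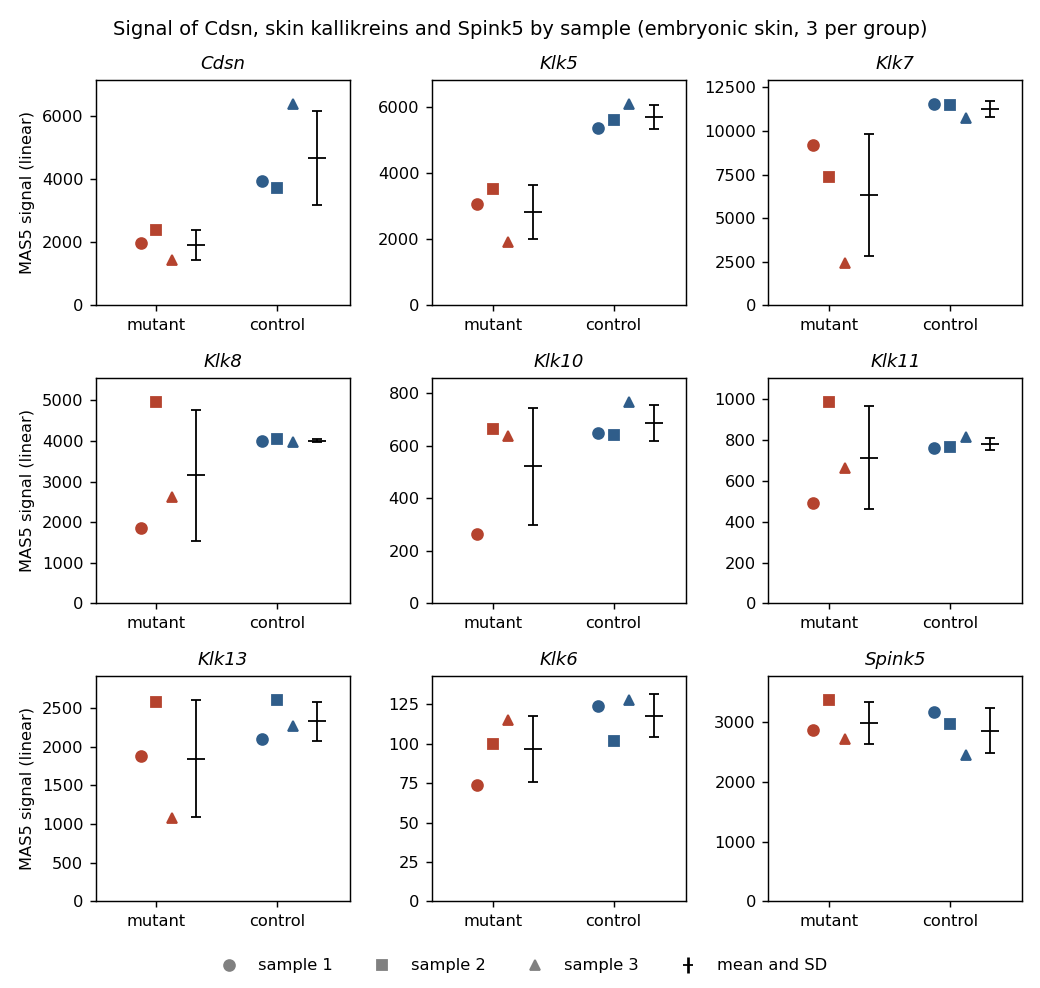
Signal (MAS5, linear scale) of each measured gene in 3 mutant (red) and 3 control (blue) samples, with the mean and SD of each group beside the points and symbols for the sample number. The groups are separate for Cdsn, Klk5 and Klk7, and they overlap for the other 6 genes; Spink5 lies between 2711 and 3371 in mutant and between 2441 and 3164 in control samples.

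Cdsn, the adhesion protein that kallikreins cut, had signals of 1965, 2373 and 1430 in mutant samples 1, 2 and 3, against 3924, 3707 and 6377 in control samples 1, 2 and 3. The highest mutant sample lay well below the lowest control sample, and control sample 3 stood above the other controls. The means were 1923 ± 473 in mutant and 4669 ± 1483 in control skin (SD, n = 3 each). On the log2 scale Cdsn differed by -1.26 (SE 0.24, 95% interval -1.81 to -0.70), a signal 2.39-fold lower in mutant skin. It ranked 28th by p among the 22518 probe sets, and its limma adjusted p was 0.426. Without mutant sample 1 the difference was -1.29 (limma adjusted p = 0.141), so it was as large without the sample that stood apart. Limma's array weights gave mutant samples 1, 2 and 3 weights of 0.257, 0.560 and 3.13. With them the difference was -1.50 and its limma adjusted p was 0.0152. For the mutant group, this and every later value with array weights rest mostly on mutant sample 3. In that setting 106 of the 22518 probe sets passed the threshold.

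Klk5, the trypsin-like protease that starts the activation of other kallikreins in human skin, had signals of 3056, 3506 and 1930 in mutant samples 1, 2 and 3. In control samples 1, 2 and 3 they were 5357, 5609 and 6082. The groups did not overlap, and the controls lay close together. The means were 2831 ± 812 in mutant and 5683 ± 368 in control skin (SD, n = 3 each), which differ on the log2 scale by -1.04 (SE 0.21, 95% interval -1.51 to -0.57). The limma adjusted p was 0.426, and it was 0.107 after mutant sample 1 was left out, where the difference was -1.12. With array weights the difference was -1.38 and the limma adjusted p was 0.00727, again mostly through mutant sample 3, the lowest for Klk5.

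Klk7, the chymotrypsin-like protease that cuts corneodesmosin, had signals of 9221, 7344 and 2425 in mutant samples 1, 2 and 3, against 11555, 11514 and 10742 in control samples 1, 2 and 3. All mutant samples were below all controls, but by very different amounts: mutant sample 3 stood at 21.5% of the control mean, mutant sample 2 at 65.2% and mutant sample 1 at 81.8%. The log2 difference was -1.04 (SE 0.41, 95% interval -1.96 to -0.11), with a limma adjusted p of 0.9999. Mutant sample 3 decided its size, since it was -0.45 without that sample and -1.41 without mutant sample 1 (limma adjusted p = 0.275). With array weights it was -1.86 (limma adjusted p = 0.0337), a fit that rests mostly on mutant sample 3.

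Spink5 encodes the inhibitor LEKTI. Its probe set read 2862, 3371 and 2711 in mutant samples 1, 2 and 3, against 3164, 2969 and 2441 in control samples 1, 2 and 3. The groups overlapped throughout, and the highest sample was a mutant and the lowest a control. The log2 difference was 0.06 (SE 0.15), with a 95% interval of -0.27 to 0.40. This interval lies apart from those of Cdsn (-1.81 to -0.70) and Klk5 (-1.51 to -0.57). It overlaps that of Klk7 (-1.96 to -0.11), and it leaves room for a modest shift in either direction. The sign turned without mutant sample 2 (-0.028), without control sample 3 (-0.045) and with array weights (-0.025).

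The distance between these genes within each array was computed as log2 signal minus that of Spink5. A change in this distance shows unequal change of the pair, with no statement about levels. For Cdsn the distance was -0.54, -0.50 and -0.91 in mutant samples 1, 2 and 3, against 0.31, 0.32 and 1.38 in control samples 1, 2 and 3. The mutant mean was lower by 1.32 (difference -1.32). For Klk5 the change was -1.10 and for Klk7 it was -1.10, and the groups were separate for each of the 3 pairs. Each exact two-sided permutation p was 0.1, the smallest that 3 against 3 samples allow, and each was 0.1 after adjustment over the 3 tests, so the test adds nothing to the separation of the groups. The size for Klk7 rested on mutant sample 3 and was -0.58 without it.

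The remaining kallikreins had overlapping signals, and the mutant samples of Klk8, Klk10, Klk11 and Klk13 spread more than the controls. Klk8, known as neuropsin and made in skin and brain, had signals of 1865, 4963 and 2623 in mutant samples 1, 2 and 3, against 3995, 4054 and 3972 in control samples 1, 2 and 3. Mutant samples lay on either side of a very narrow control range. The log2 difference was -0.46 (SE 0.30, limma adjusted p = 0.9999), and without mutant sample 1 it was -0.15. Without mutant sample 2 it was -0.85 (limma adjusted p = 0.349).

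Klk10, a kallikrein of many epithelia, had 265 in mutant sample 1 and 663 and 635 in mutant samples 2 and 3, against 649, 642 and 766 in control samples 1, 2 and 3. Mutant sample 1 alone was far from the controls, and the difference of -0.48 was -0.072 without it and -0.70 without mutant sample 2. Klk11, a trypsin-like kallikrein, had 490, 985 and 659 in mutant samples 1, 2 and 3, against 761, 764 and 811 in control samples 1, 2 and 3. Its difference of -0.18 turned to 0.049 without mutant sample 1 and was -0.44 without mutant sample 2. Klk8, Klk10 and Klk11 thus had their lowest signal in mutant sample 1, at 46.6%, 38.6% and 62.9% of the control mean. That is the sample with decidual transcripts and the lowest Krt5 signal, and their part in these values was not tested.

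Klk13, a trypsin-like kallikrein of stratified epithelia, had 1887, 2580 and 1077 in mutant samples 1, 2 and 3, against 2102, 2609 and 2275 in control samples 1, 2 and 3. Its low value was in mutant sample 3, and the log2 difference of -0.41 was -0.071 without that sample and -0.69 without mutant sample 2. Klk6 had 74.0, 100.1 and 115 in mutant samples 1, 2 and 3, against 124, 102 and 128 in control samples 1, 2 and 3. These signals were dim, although above the 9 Y-linked probe sets on the 3 arrays with high Xist, whose highest value was 42.5. Without the filter the log2 difference of Klk6 was -0.24, with a 95% interval of -0.91 to 0.42. The nerve markers Sox10 and Mbp, glial genes of a tissue where Klk6 and Klk8 are also made, differed by 0.02 and 0.33 and overlapped between groups.

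**Figure D2:**
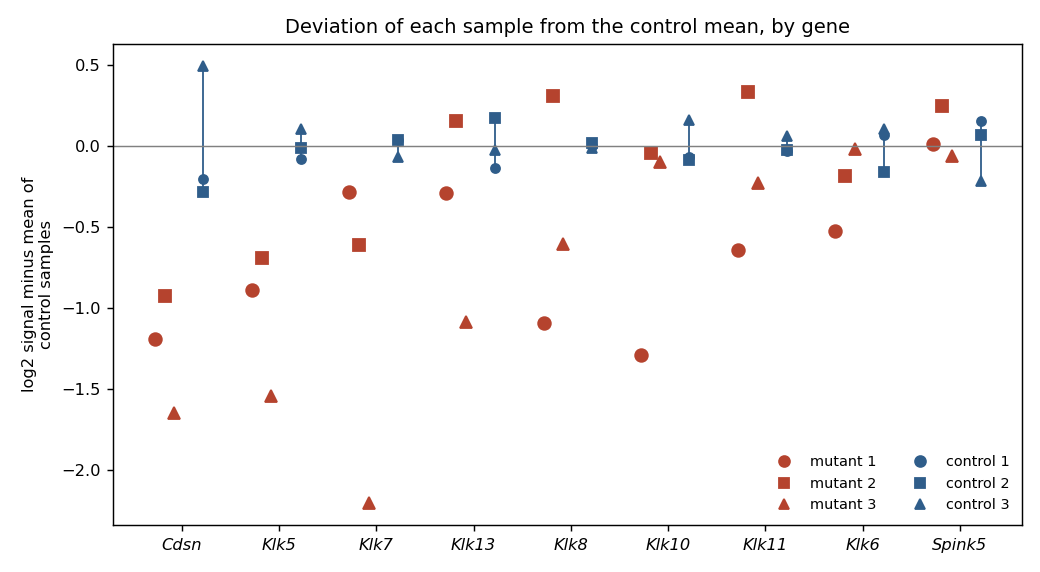
Log2 signal of each sample minus the mean of the 3 control samples, for each gene, with mutant samples in red and control samples in blue (the line spans the control samples). Mutant sample 3 is lowest for Cdsn, Klk5, Klk7 and Klk13, mutant sample 1 is lowest for Klk8, Klk10, Klk11 and Klk6, and mutant sample 2 lies above the control mean for Klk8, Klk11, Klk13 and Spink5.

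The order of the mutant samples thus differed from gene to gene. By the root-mean-square distance between gene-centred log2 signals over the 6 arrays, the closest members were Klk8 and Klk11 (0.20), followed by Cdsn and Klk5 (0.24). The most distant were Klk7 and Klk10 (0.95). These distances are a description over 6 arrays that share their mutant and control grouping.

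The members on chromosome 7 were also set in their order, in a row bounded by the outermost of these members. In the RefSeq order of mouse chromosome 7, 10 protein-coding genes lie in a row from Klk14 to Klk5, all kallikreins, of which 8 are members. The other two are Klk12 and Klk9. Of the 7 genes of this row that were tested, all 7 had a negative difference, from -0.18 for Klk11 to -1.23 for Klk9, where 55.6% of all probe sets were negative. Of these 7 genes, 6 are members counted above, and Klk9 alone is added. The size of the difference did not follow the order: Klk9 stood next to Klk10 (-0.48) and Klk8 (-0.46), and the chymotrypsin-like Klk7 (-1.04) next to Klk8. Klk12 was below the filter, with signals of 13.2 to 117 in mutant and 8.60 to 74.7 in control samples.

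**Figure D3:**
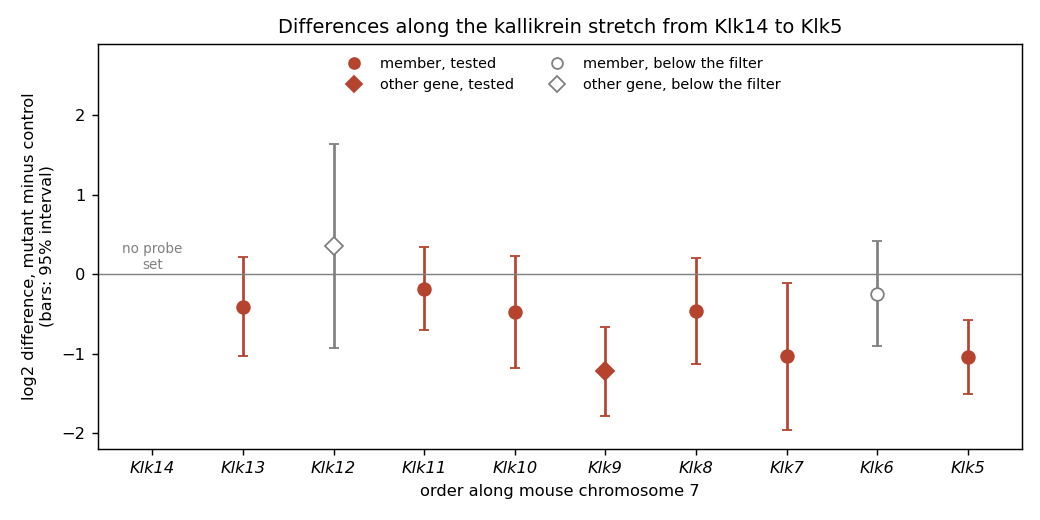
Log2 difference (mutant minus control) of the kallikrein genes in their order along mouse chromosome 7, with 95% intervals from limma; grey open symbols are genes below the filter and diamonds are genes outside the chosen set. The intervals of Klk5, Klk7 and Klk9 lie below 0, and those of Klk8, Klk10, Klk11 and Klk13 include it.

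Klk9 itself, a little studied kallikrein, had signals of 117, 172 and 90.3 in mutant samples 1, 2 and 3, against 290, 301 and 374 in control samples 1, 2 and 3. The groups did not overlap. Klk9 differed by -1.23 on the log2 scale (SE 0.25, limma adjusted p = 0.426), and with array weights the limma adjusted p was 0.0169. Among 11581 genes outside the chosen set, Klk9 was the gene whose pattern over the 6 arrays was most like that of Cdsn, at a root-mean-square distance of 0.16. The next were Tyrp1, a melanocyte enzyme (0.17), the calpain protease Capn9 (0.20), the WAP-domain gene Wfdc21 (0.21) and Hal, the histidine ammonia-lyase of cornifying cells (0.23). Hal had 949.5, 978 and 631 in mutant samples 1, 2 and 3, against 2340, 1595 and 2228 in control samples 1, 2 and 3. The distance keeps the difference between groups, and these 5 genes all differed by between -1.25 and -1.01. Wfdc21 lay at 66.9 to 97.6 in mutant samples, below the filter signal of 114.5, as did Klk9 and Tyrp1 in mutant sample 3. The genes nearest to Spink5 were Mypop, Atxn7l3, Xrcc5, Tyk2 and U2af1l4, at distances of 0.041 to 0.055, all with a difference between -0.03 and 0.14.

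Among other tissue kallikreins, 12 of 18 genes had a probe set and 2 were tested, Klk9 and the glandular kallikrein Klk1. The tested probe set of Klk1 differed by 0.11 and overlapped between groups. The other probe sets of Klk1, below the filter, rose to 3107, 3410 and 1010 in mutant sample 1. The tested one read 300.3 there and did not follow them, so its difference may not describe Klk1 RNA. The median of Klk9 and this probe set was -0.56, the midpoint between values of opposite sign. The near-identical Klk1b genes were all below the filter, and probe sets of such genes can share signal.

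Protease inhibitors other than Spink5 went in both directions. Of 14 tested genes (of 21), 9 were negative and 5 positive, with a median of -0.20, and none passed over all probe sets. At an unadjusted p under 0.05, 4 were lower and 2 higher. Of all 22518 probe sets, 55.6% were negative, and at that p 444 were lower and 327 higher. Serpina12, the serpin vaspin, which inhibits human KLK7, had signals of 1089, 1628 and 367 in mutant samples 1, 2 and 3, against 3396, 3244 and 4869 in control samples 1, 2 and 3. The groups were far apart, with mutant sample 3 lowest. Serpina12 differed by -2.08 on the log2 scale (SE 0.45, limma adjusted p = 0.571), or by -2.87 with array weights (limma adjusted p = 0.0102). Its other probe set, dimmer, had 71.3 to 131 in mutant and 290 to 322 in control samples.

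Spink12, a Kazal-type inhibitor of the same family as Spink5, went the other way. Its probe set read 310, 1554 and 752 in mutant samples 1, 2 and 3, against 22.7, 183 and 96.6 in control samples 1, 2 and 3. Every mutant sample lay above every control, and the mutant samples differed among themselves by several fold. The control mean lay below the median signal of 114.5, so the probe set was tested through its mutant samples. The log2 difference of 2.81 depends on the pseudocount and is no bound. Its limma adjusted p was 0.571, with 0.0287 under array weights and 0.00897 with the replicate block. Csta1, a cystatin A-type inhibitor of cysteine proteases, differed by -0.61 (limma adjusted p = 0.942, and 0.0214 with array weights) and Wfdc5, a small WAP-domain protein, by -0.58 (limma adjusted p = 0.9999), each with all mutant samples below all controls. Csta1 has close copies that can share its signal. The remaining genes at an unadjusted p under 0.05, named after their values were seen, were Cst6, cystatin M/E of the granular layer, at -0.77, and Spint1, the inhibitor of the membrane protease matriptase, at 0.42.

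**Figure D4:**
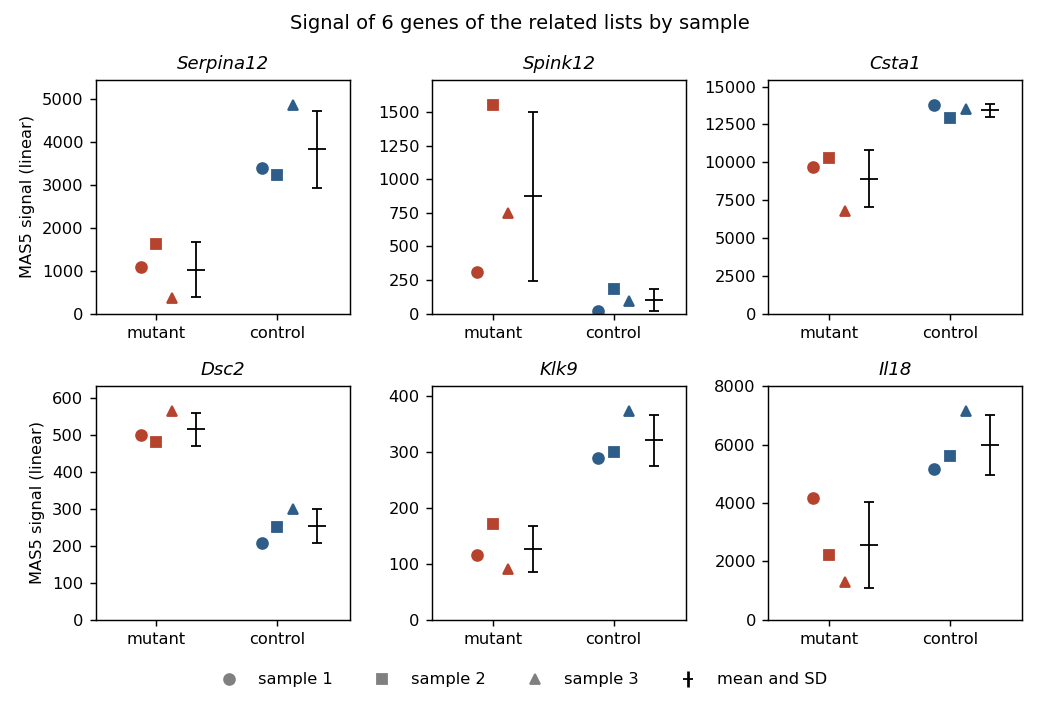
Signal (MAS5, linear scale) of 6 genes of the related lists in 3 mutant (red) and 3 control (blue) samples, with the mean and SD of each group. Serpina12, Csta1, Klk9 and Il18 are lower in every mutant sample than in any control sample, and Spink12 and Dsc2 are higher in every mutant sample. Of all 22518 probe sets tested, 1132 were lower and 743 higher in this way. Named genes of these lists that overlapped between groups, such as Casp14, Ctsb and F2r, are not shown.

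The other proteases of epidermis had a median difference near 0. Of 18 tested genes (of 22), 13 were negative and 5 positive, with a median of -0.051, where 55.6% of all probe sets were negative. At an unadjusted p under 0.05, 1 gene was lower, against 1.97% of all probe sets. That gene was Casp14, the caspase of cornifying keratinocytes, at -0.78, with 1562, 3236 and 1659 in mutant samples 1, 2 and 3, against 3013, 3588 and 4035 in control samples 1, 2 and 3. Those groups overlapped. Lgmn, the asparagine-specific protease legumain, differed by 0.26, Ctsb, the lysosomal cathepsin B, by 0.55 and Tmprss13, a membrane serine protease, by -0.32, and all overlapped between groups. The Ctsb value rested on mutant sample 1 (21680, against 7034 and 7382 in mutant samples 2 and 3) and was 0.019 without it.

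Desmosomal partners of corneodesmosin had 11 tested genes (of 15), with 9 negative, 2 positive and a median of -0.15. Over all probe sets tested, 55.6% were negative. Dsc1, the desmocollin of the upper epidermis and a kallikrein substrate in human skin, differed by -0.18, and Dsg1a and Dsg1b, mouse forms of desmoglein 1, by -0.24 and -0.32. Their limma adjusted p was 0.9999 in each case. The other probe set of Dsc1 differed by -0.47, with 3021, 4846 and 3797 in mutant samples 1, 2 and 3, against 4761, 6019 and 5137 in control samples 1, 2 and 3, and its groups overlapped. On the probe set used, every mutant sample lay below every control. Dsc2, a desmocollin of simple and lower epithelia, had 501, 481 and 565 in mutant samples 1, 2 and 3, against 208, 252 and 301 in control samples 1, 2 and 3. The groups did not overlap, and Dsc2 differed by 0.97 (limma adjusted p = 0.426, and 0.0208 with array weights). Its other, dimmer probe set overlapped between groups, with 180 to 548 in mutant and 182 to 239 in control samples.

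Of 9 genes listed as receptors and targets of proteases in general, 2 were tested. Their median was -0.61, the midpoint between 2 genes of opposite sign. Il18, a keratinocyte interleukin made as a precursor, had 4168, 2212 and 1292 in mutant samples 1, 2 and 3, against 5176, 5623 and 7153 in control samples 1, 2 and 3. All mutant samples were lower than the controls, least so mutant sample 1. The log2 difference was -1.36 (limma adjusted p = 0.942), and without mutant sample 1 it was -1.79 (limma adjusted p = 0.0142), past the threshold. With array weights, which rest mostly on mutant sample 3, the lowest for Il18, the limma adjusted p was 0.00727. F2r, a protease-activated receptor, differed by 0.15 and overlapped between groups. Without mutant sample 1, the adjusted threshold was passed by 0.173% of probe sets, and 0 members were among them.

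Cdsn and Klk7 are made in the granular layer, so genes of that layer were set beside them. Of 12 tested granular layer genes (of 14), 10 were negative and 2 positive, with a median of -0.45, where 55.6% of all probe sets were negative. At an unadjusted p under 0.05, 6 were lower, against 1.97% of all probe sets. Flg, the filaggrin precursor, differed by -3.70 and Lor, loricrin, by -0.08. The summed signal of the 13 granular genes on the array was 103373, 138406 and 105726 in mutant samples 1, 2 and 3, against 129665 to 137845 in control samples, so the groups overlapped. Bright genes weigh most in such a sum. Lor alone read 26127 to 40019 in mutant and 33114 to 36754 in control samples. Flg read 252 to 2967 in mutant and 8080 to 13151 in control samples. The 8 spinous genes had a median of 0.04 and the 7 basal genes one of -0.11, while the 8 periderm genes had one of 0.46. The medians were -0.14 for 7 skeletal muscle genes and 0.01 for 6 fibroblast genes. The part of any of these in the values of Cdsn and the kallikreins was not tested.

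**Figure D5:**
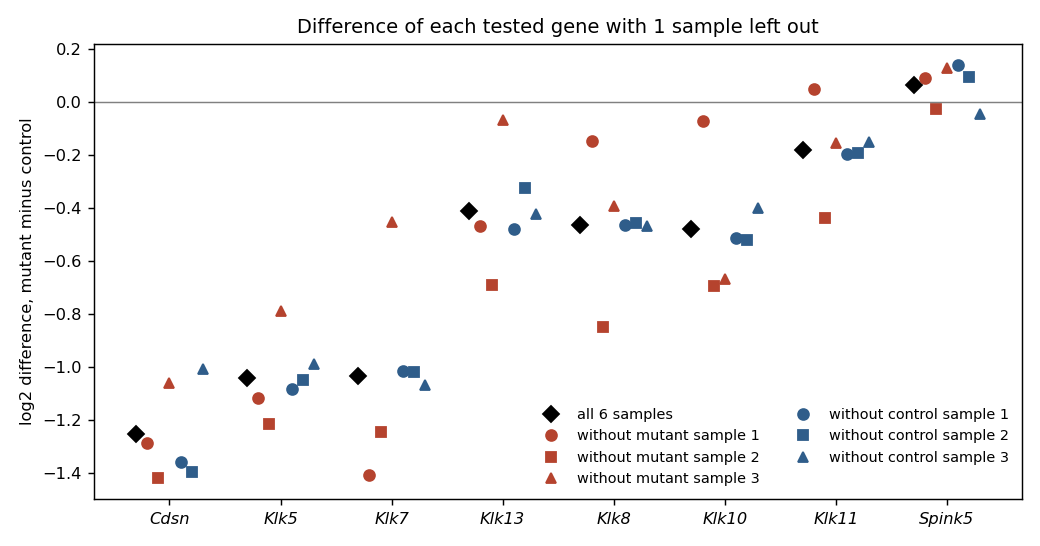
Log2 difference (mutant minus control) of each tested gene with all 6 samples (black) and with 1 mutant (red) or control (blue) sample left out. Cdsn stays between -1.42 and -1.01 and Klk5 between -1.22 and -0.79, Klk7 ranges from -1.41 to -0.45, and Spink5 stays between -0.045 and 0.14.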

How the data were processed

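Total RNA of mouse skin was prepared with a Qiagen RNeasy kit and biotin-labelled with Affymetrix kits, per the labels' protocols. What the authors deposited is a linear intensity for each probe set, the MAS5 signal. The method is named in the submitters' processing notes, with no version. The authors' deposited intensity has the same trimmed mean on every array. No detection calls entered the work. Groups came from the sample titles. Gene names came from GEO's platform annotation, updated by gene identifier to RefSeq (GRCm38.p6): 34958 probe sets had 1 symbol, 932 several and 9211 none.

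Signals were analysed as log2(signal + 24.48), a pseudocount equal to the 20th percentile of the table. The 64 control probe sets were left out, and 22518 of 45037 probe sets with a mean log2 above the median were tested with limma 3.58.1 under R 4.3.3 (moderated two-sided test after lmFit, eBayes variance trend, Benjamini-Hochberg over all tested). The fit was tried on simulated data. Each gene was represented by its tested probe set with the highest mean. Named genes were all members, up to 4 genes of each related list by smallest p, 5 genes closest in pattern to Cdsn and 5 to Spink5, and 6 keratinocyte genes as a check of the tissue. The members and lists were chosen with earlier results of these data known. Alternatives were other pseudocounts, filters, scalings, variance models, array weights, a replicate block and each sample left out. Sex as a covariate and the wider AP-2 spacing were added after seeing the data. Plots used matplotlib 3.10.9.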

Additional observations from a re-analysis of the deposited data

How the results depend on the processing

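The count of probe sets past the threshold was 1 with all samples. It was 0 with the filter at the 75th percentile, 106 with array weights and 8 with the replicate block, and with 1 sample left out it was between 1 and 39, the highest without mutant sample 1 and 3 without control sample 2. Members past the threshold numbered 3 with array weights (Cdsn, Klk5 and Klk7) and 0 in every other setting run, the replicate block, sex as a covariate and an adjusted p under 0.1 included. The members' median difference stayed between -0.77 and -0.31. In the check of pairing, the deviations of samples with the same number from their group means had correlations of -0.052, -0.073 and 0.11. Such values cannot show whether samples of the same number share a litter or batch, and the labels state neither. The replicate block was kept as an alternative only. Of 426 single-gene values under alternatives, 5 had the other sign, none past the threshold: Spink5 with array weights (-0.025), without mutant sample 2 (-0.028) and without control sample 3 (-0.045), and Klk11 (0.049) and F2r (-0.039) without mutant sample 1. With 1 sample left out, Spink5 ranged from -0.045 to 0.14, Klk11 from -0.44 to 0.049 and F2r from -0.039 to 0.29. The causes were not tested. Averaging probe sets changes nothing for members, which have 1 each. Within arrays of high Xist (1 mutant, 2 controls) and of low Xist (2 mutants, 1 control), Cdsn differed by -0.95 and -1.78, Klk5 by -0.84 and -1.22 and Klk7 by -0.32 and -1.34. With 3 arrays a group, precision is limited by their number.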

Other observations

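Klk1, the glandular kallikrein, had 3 further probe sets below the filter. Their signals were 3107, 3410 and 1010 in mutant sample 1, the sample with decidual and uterine transcripts. In the other 5 samples they were at most 23.5, 48.9 and 54.4. The probe set of Klk1 used in the comparison had 300.3 in mutant sample 1, within the range of the other samples. It thus did not follow the 3 further probe sets. The probe set of Klk4 was also highest in mutant sample 1, at 74.0, against at most 12.2 in the other samples. That signal is dim, below the filter signal of 114.5, and Y-linked probe sets on arrays with high Xist reached 42.5.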
